A study of Homo sapiens with 4 samples.

Results

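The 10 genes described here encode NF-κB subunits, their inhibitors and a pair of feedback proteins that NF-κB itself induces. They were taken from a read-count table of 58735 genes by matching Ensembl identifiers to the symbols NFKB1, NFKB2, REL, RELA and RELB (5 subunits), NFKBIA, NFKBIE and NFKBIZ (3 inhibitors of the IκB family), and TNFAIP3 and BIRC3 (2 feedback genes). All 10 were found and all 10 had enough reads to be compared. The table held poly-A RNA sequencing of the MDA-MB-231 line and of SUM159, both human triple-negative breast cancer cell lines. Each line was kept for 72 h with 1 µM mebendazole (MBZ), an anthelmintic drug that binds tubulin, or with its solvent DMSO. There was 1 library in each of the 4 groups, so no difference within a line has a replicate check, and whether the cultures were grown separately was not stated. The libraries held 24897586 (MDA-MB-231 DMSO), 17143139 (MDA-MB-231 MBZ), 18708179 (SUM159 DMSO) and 18904501 (SUM159 MBZ) counts. The comparison asks how the transcripts of this pathway differed between drug and solvent in each line.

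NF-κB is a family of dimeric transcription factors that is held in the cytoplasm by IκB proteins until an IκB kinase marks these for degradation. In the canonical route, tumour necrosis factor, interleukin-1 or Toll-like receptor ligands release dimers of RELA or REL with the NFKB1 product, whereas in the non-canonical route the kinase NIK (MAP3K14) drives processing of the NFKB2 product, which pairs with RELB. The dimers switch on inflammatory and survival genes together with their own brakes, and breast cancer lines of the basal type are known for activity of this pathway without added ligand.

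The line labels were compared with marker genes first, in counts not scaled to library size. The oestrogen receptor ESR1 had 1, 0, 2 and 18 counts in MDA-MB-231 DMSO, MDA-MB-231 MBZ, SUM159 DMSO and SUM159 MBZ, and the progesterone receptor PGR had 0 in each. ERBB2 had 1996, 1353, 1826 and 1216 counts, and the mesenchymal filament gene VIM had 47253, 20703, 54409 and 41720. These are the low hormone receptor and high VIM levels known for both lines. The 3 mesenchymal markers summed to 75373, 41286, 75986 and 63315 counts. Within that sum CD44 had 9069, 7435, 20239 and 18568, and CAV1 had 19051, 13148, 1338 and 3027. CD44 was thus higher in SUM159 and CAV1 in MDA-MB-231. The 5 epithelial markers summed to 38289, 17412, 13935 and 16063, mostly from the keratin gene KRT8, while the epithelial adhesion gene CDH1 had 11, 12, 0 and 0. The 3 endothelial markers summed to 375, 347, 676 and 852 counts, nearly all from PECAM1, with CDH5 at 0, 0, 1 and 6. Of 5 leukocyte markers, the T cell gene CD3E had at most 1 count in any library. The 5 together had 156, 142, 714 and 229 counts, and the most abundant in SUM159 DMSO was CD14 with 477, followed by PTPRC with 216. Both were lower in SUM159 MBZ, at 110 and 60 counts, whereas CSF1R went from 21 to 54 there and LYZ from 0 to 4. In MDA-MB-231 the TMM-scaled log2 fold change was 1.78 (0.58 to 3.17) for PTPRC, from 8 counts, and -0.13 (-0.76 to 0.49) for CD14, -0.13 (-0.63 to 0.36) for CSF1R and 0.65 (-0.47 to 1.82) for LYZ, whose counting intervals include 0. The part of these markers in the results below was not tested. In bulk RNA, fewer cells of a type and less RNA per cell cannot be told apart.

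Levels were compared between genes as RPKM, which is reads divided by exon length and by library size, with library sizes scaled by the trimmed mean of M-values (TMM) over the 4 libraries. NFKBIA, RELA, NFKB2, RELB and NFKBIE were the 5 highest of the 10 genes in each library, in varying order, and REL was the lowest in each. The range ran from 0.166 (REL) to 32.6 RPKM (RELA) in MDA-MB-231 DMSO and from 0.462 (REL) to 63.2 RPKM (NFKBIA) in SUM159 DMSO. After MBZ it ran from 0.261 to 30.1 RPKM in MDA-MB-231 and from 0.555 to 57.4 RPKM in SUM159. The summed level of the 10 genes was 102 RPKM in MDA-MB-231 DMSO and 137 in MDA-MB-231 MBZ, against 262 in SUM159 DMSO and 253 in SUM159 MBZ. SUM159 thus carried more of these transcripts than MDA-MB-231 under either treatment.

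**Figure D1:**
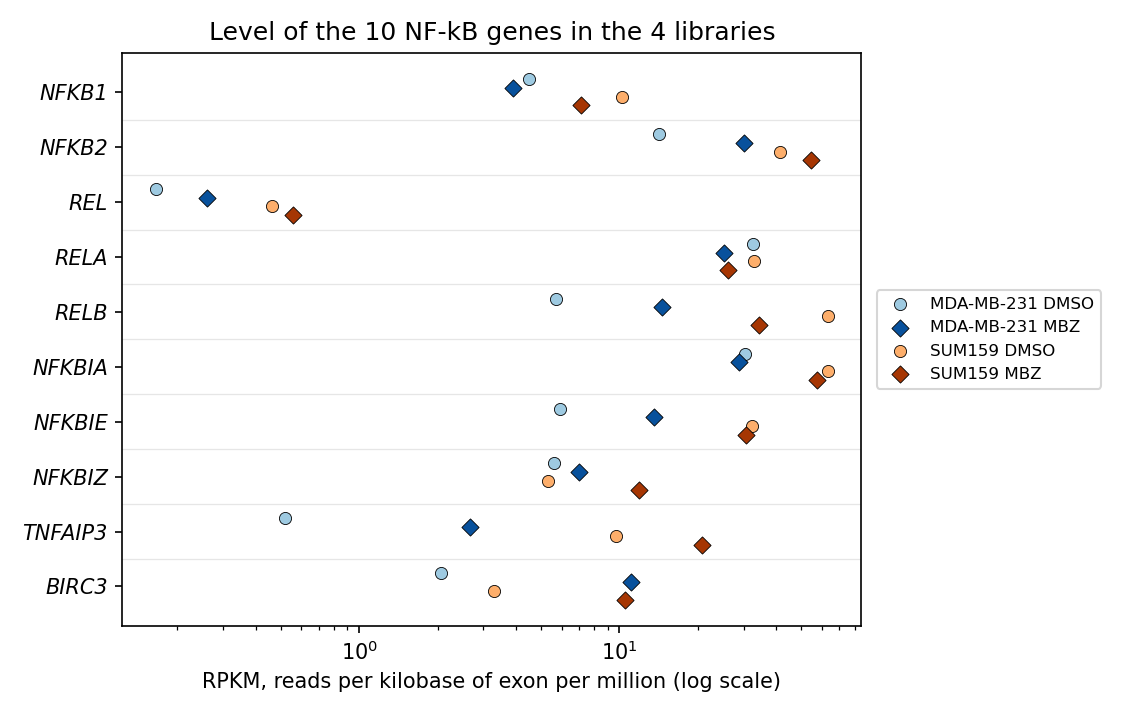
Level of each of the 10 genes in RPKM (reads scaled to exon length and library size), on a log axis, with 1 point per library (circles DMSO, diamonds MBZ). TNFAIP3 spans the widest range, from 0.521 RPKM in MDA-MB-231 DMSO to 20.7 RPKM in SUM159 MBZ, while RELA lies between 25.3 and 32.8 in the 4 libraries.

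Within each line, a gene was counted as higher or lower after MBZ when its fold change was 1.5 or more and its counts in that line's libraries averaged 10 or more. In MDA-MB-231, 6 of the 10 genes were higher (NFKB2, REL, RELB, NFKBIE, TNFAIP3 and BIRC3), against 18.3% of all 15142 genes compared. None of the 10 was lower, against 15.8% of all genes. In SUM159, 3 of the 10 were higher (NFKBIZ, TNFAIP3 and BIRC3), against 21.5% of 15674 genes, and RELB alone was lower, against 21.7% of all genes. The median log2 fold change of the 10 was 0.85 in MDA-MB-231 and 0.09 in SUM159, beside -0.02 and -0.03 over all genes compared. The 2 feedback genes were higher in both lines, against 6.12% of the 13733 genes compared in both, and none of the 10 was lower in both, against 4.71%. One gene, RELB, changed in opposite directions, against 6.04% of all genes. Scaling by total counts in place of TMM moved the median of all genes upward by 0.27 in MDA-MB-231 and 0.30 in SUM159 on the log2 scale, and every change given here is relative to the TMM scale. The 95% interval beside a fold change is exact (Clopper-Pearson) and treats the MBZ library's part of a gene's counts in the pair as a binomial share. Such intervals cover counting error only, and they compare libraries, not conditions.

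**Figure D2:**
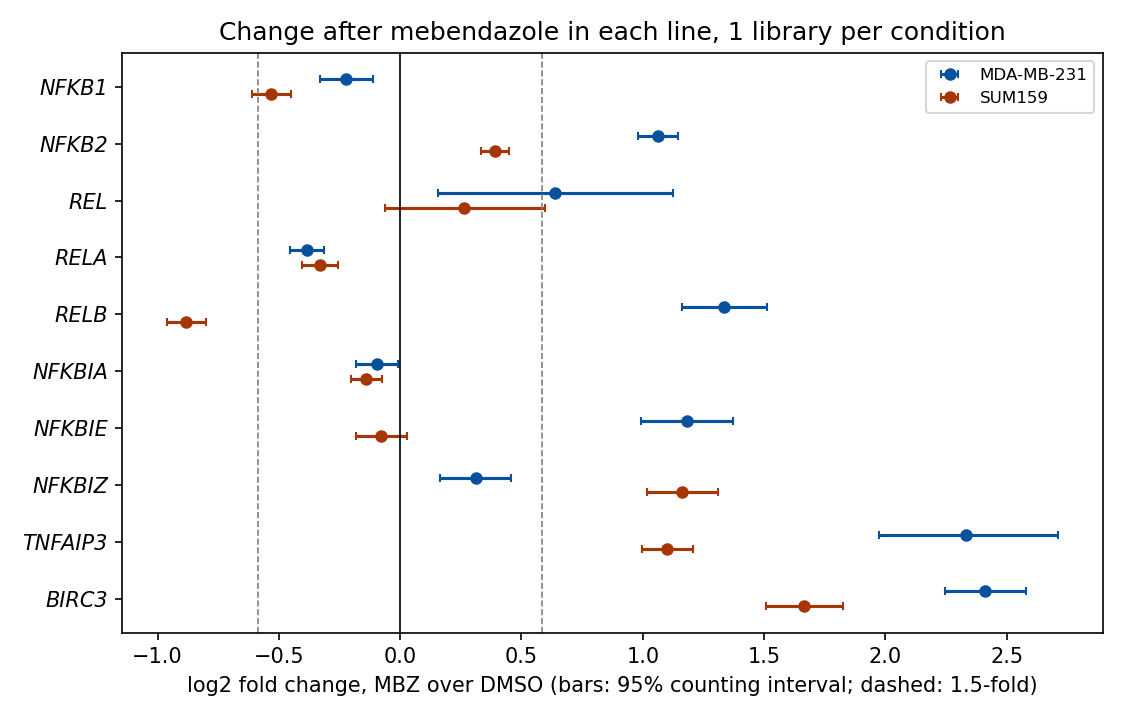
The log2 fold change of each gene, MBZ over DMSO, with 95% counting intervals (bars) and the 1.5-fold limits (dashed lines), 1 library per condition. BIRC3 and TNFAIP3 lie right of the upper limit in both lines, at 2.41 and 2.33 in MDA-MB-231 and 1.67 and 1.10 in SUM159, while RELB lies at 1.34 in MDA-MB-231 and -0.88 in SUM159, and at -0.58, inside the limit, in SUM159 with total-count scaling.

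Among the subunits, RELA and NFKB1 stayed within 1.5-fold in both lines, RELB passed it in both (in SUM159 not with total-count scaling), and NFKB2 and REL passed it in MDA-MB-231 (NFKB2 with total-count scaling in SUM159 too). RELA encodes the main activating subunit of the canonical route. Its level was 32.6 RPKM in MDA-MB-231 DMSO, 25.3 in MDA-MB-231 MBZ, 32.8 in SUM159 DMSO and 26.1 in SUM159 MBZ. On this scale both DMSO libraries lay above both MBZ libraries, by less than 1.5-fold, with a log2 fold change of -0.39 (-0.46 to -0.31) in MDA-MB-231 and -0.33 (-0.41 to -0.26) in SUM159, which became -0.12 and -0.03 with total-count scaling. NFKB1, whose product is trimmed to the short DNA-binding partner of RELA, had 4.48, 3.89, 10.3 and 7.10 RPKM in the same order. Its log2 fold change was -0.22 (-0.33 to -0.11) in MDA-MB-231, where the sign turned to 0.04 with total-count scaling, and -0.53 (-0.61 to -0.45) in SUM159.

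NFKB2 encodes the precursor whose processing by the non-canonical route releases the partner of RELB. It lies on chromosome 10 at 102394110 to 102402524 (GRCh38, plus strand) and has 23 exons in its canonical transcript. Its level was 14.2 RPKM in MDA-MB-231 DMSO, 30.1 in MDA-MB-231 MBZ, 41.4 in SUM159 DMSO and 54.3 in SUM159 MBZ. The MBZ library was the higher of the pair in each line, and SUM159 DMSO was still above MDA-MB-231 MBZ. NFKB2 rose 2.09-fold in MDA-MB-231 (log2 1.06, 0.98 to 1.15), whereas in SUM159 the ratio was 1.31 (log2 0.39, 0.33 to 0.45), and 0.69 on the log2 scale, past 1.5-fold, with total-count scaling.

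RELB, the subunit that pairs with processed NFKB2 and is itself an NF-κB target, lies on chromosome 19 at 45001461 to 45038192 with 12 exons. Its counts were 398 in MDA-MB-231 DMSO, 832 in MDA-MB-231 MBZ, 3130 in SUM159 DMSO and 2116 in SUM159 MBZ, or 5.71, 14.6, 63.1 and 34.2 RPKM. MDA-MB-231 had its higher value with MBZ and SUM159 with DMSO, and both SUM159 libraries lay above both MDA-MB-231 libraries. RELB rose 2.52-fold in MDA-MB-231 (log2 1.34, 1.16 to 1.51) and fell by 0.88 on the log2 scale in SUM159 (-0.96 to -0.80), which became -0.58 and no longer passed 1.5-fold with total-count scaling. In MDA-MB-231, 5.55% of the genes compared had a larger log2 fold change than RELB, and in SUM159, 87.1%.

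REL, the lymphoid-type activating subunit, had few reads: 66, 85, 131 and 196 counts in the order above. The fold change in MDA-MB-231 was 1.55 (log2 0.64, 0.16 to 1.12), just past the limit and no longer counted with a mean of at least 100 counts, and in SUM159 1.20 (log2 0.26, -0.06 to 0.60), whose interval includes no change. REL is uncertain for a further reason: 5702 of its 17129 annotated exonic bases overlap another gene model on the same strand, which itself had 0 counts in each library. Reads in such a stretch are assigned to neither gene by the counting mode used, and the length-scaled level of REL can be too low for that reason.

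The share of each subunit within a library does not depend on how libraries are scaled. RELA made up 57.0% (55.9% to 58.2%) of the summed subunit level in MDA-MB-231 DMSO and 34.1% (33.0% to 35.2%) in MDA-MB-231 MBZ. NFKB2 went the other way, from 24.9% (23.9% to 25.9%) to 40.6% (39.5% to 41.7%), and RELB from 9.99% (9.11% to 10.9%) to 19.7% (18.6% to 20.9%). RELA was therefore the leading subunit transcript of MDA-MB-231 in DMSO and NFKB2 in MBZ. SUM159 began elsewhere: RELB led in DMSO with 42.6% (41.6% to 43.6%) and had 28.0% (27.1% to 29.0%) in MBZ, while NFKB2 had 28.0% (27.2% to 28.8%) and then 44.4% (43.5% to 45.3%). RELA held 22.2% (21.5% to 22.9%) and 21.3% (20.6% to 22.0%) there. In both lines NFKB2 was thus the leading subunit transcript after MBZ. The intervals come from the delta method on the log odds of the counts and cover counting error only. The ratio of NFKB2 to NFKB1 was 3.17 in MDA-MB-231 DMSO, 7.74 in MDA-MB-231 MBZ, 4.03 in SUM159 DMSO and 7.64 in SUM159 MBZ. That ratio was higher with MBZ by 2.44-fold (log2 1.29, 1.15 to 1.42) in MDA-MB-231 and 1.89-fold (log2 0.92, 0.82 to 1.02) in SUM159. The ratio of RELB to RELA was 0.175, 0.577, 1.92 and 1.31 in the same order, so it was higher with MBZ in MDA-MB-231 and lower in SUM159.

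**Figure D3:**
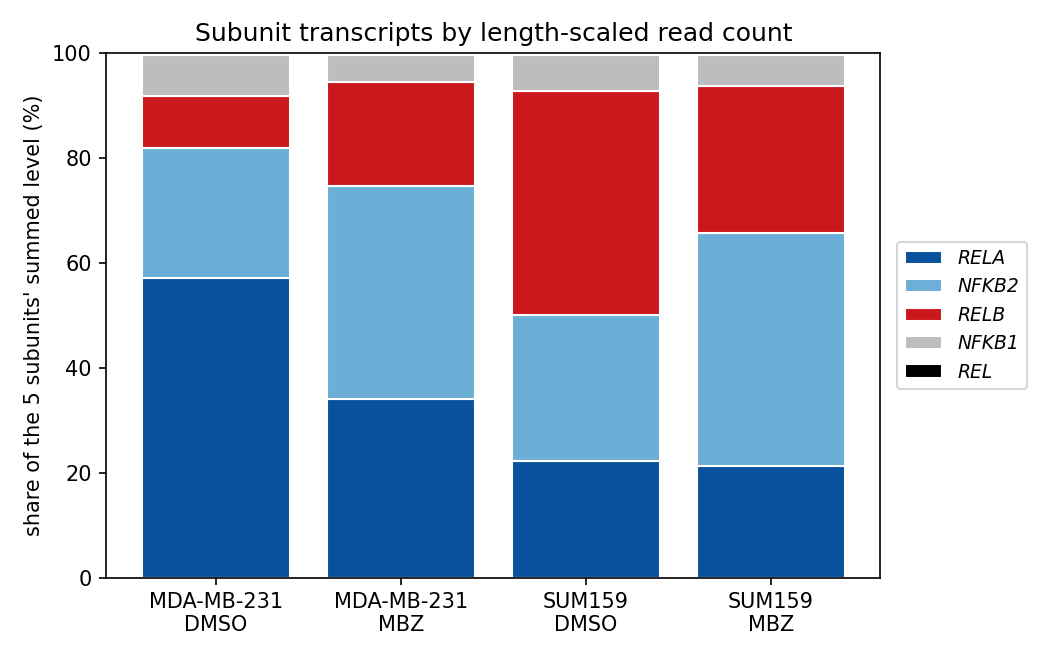
Share of each subunit, in percent, of the summed reads per kilobase of the 5 subunit genes, with 1 bar per library. RELA fills 57.0% of the MDA-MB-231 DMSO bar and RELB 42.6% of the SUM159 DMSO bar, while NFKB2 is the largest segment of both MBZ bars, at 40.6% and 44.4%.

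The inhibitors did not move as a group, and each gave its own pattern. NFKBIA encodes IκBα, the inhibitor that is degraded and made again within each round of canonical signalling. It lies on chromosome 14 at 35401079 to 35404749 (minus strand) and has 6 exons. The gene had 2405, 1863, 3551 and 4015 counts, or 30.5 RPKM in MDA-MB-231 DMSO, 28.9 in MDA-MB-231 MBZ, 63.2 in SUM159 DMSO and 57.4 in SUM159 MBZ. The libraries of a line lay close together, and the lines lay apart. The log2 fold change was -0.10 (-0.18 to -0.01) in MDA-MB-231 and -0.14 (-0.20 to -0.07) in SUM159, and total-count scaling turned the signs, to 0.17 and 0.16.

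NFKBIE encodes IκBε, a slower inhibitor that is also induced by NF-κB. Its level was 5.92 RPKM in MDA-MB-231 DMSO, 13.6 in MDA-MB-231 MBZ, 32.3 in SUM159 DMSO and 30.6 in SUM159 MBZ. It rose 2.27-fold in MDA-MB-231 (log2 1.18, 0.99 to 1.37). In SUM159 the log2 fold change was -0.08 (-0.18 to 0.03), and 0.22 with total-count scaling, so no direction can be given there. NFKBIZ encodes IκBζ, a nuclear member of the family that acts as a coactivator of a subset of NF-κB targets, IL6 among them. Its counts were 766, 787, 518 and 1445, or 5.58, 7.01, 5.30 and 11.9 RPKM in the same order. SUM159 MBZ stood above the other libraries. NFKBIZ rose 2.24-fold in SUM159 (log2 1.16, 1.02 to 1.31) and had a ratio of 1.24 (log2 0.31, 0.17 to 0.46) in MDA-MB-231. Set against NFKBIA within each library, NFKBIE was 0.194, 0.471, 0.512 and 0.534 of its level, and NFKBIZ 0.183, 0.243, 0.0839 and 0.207. The NFKBIE to NFKBIA ratio thus stood apart in MDA-MB-231 DMSO, the lowest of the 4 libraries, and the NFKBIZ to NFKBIA ratio in SUM159 DMSO.

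The feedback genes gave the 2 largest log2 fold changes of the 10 in MDA-MB-231, and both were higher after MBZ in each line. TNFAIP3 encodes the ubiquitin-editing enzyme that removes the chains needed for signalling below the tumour necrosis factor receptor. It lies on chromosome 6 at 137867214 to 137883314 with 9 exons. Its counts were 78 in MDA-MB-231 DMSO, 326 in MDA-MB-231 MBZ, 1032 in SUM159 DMSO and 2757 in SUM159 MBZ, or 0.521, 2.66, 9.67 and 20.7 RPKM. Each MBZ library was above its DMSO library, and MDA-MB-231 MBZ was still below SUM159 DMSO. TNFAIP3 rose 5.04-fold in MDA-MB-231 (log2 2.33, 1.98 to 2.71) and 2.15-fold in SUM159 (log2 1.10, 1.00 to 1.21). Of the genes compared, 1.43% had a larger value in MDA-MB-231 and 11.5% in SUM159.

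BIRC3 encodes a ubiquitin ligase that protects cells from death signals and, with its neighbour BIRC2, keeps NIK low. It lies on chromosome 11 at 102317484 to 102339403 with 9 exons. Its counts were 359, 1582, 409 and 1616, or 2.06 RPKM in MDA-MB-231 DMSO, 11.1 in MDA-MB-231 MBZ, 3.30 in SUM159 DMSO and 10.5 in SUM159 MBZ. Here the libraries grouped by treatment and not by line. BIRC3 rose 5.32-fold in MDA-MB-231 (log2 2.41, 2.25 to 2.58) and 3.17-fold in SUM159 (log2 1.67, 1.51 to 1.83). BIRC2 stayed within 1.5-fold, with log2 fold changes of 0.36 (0.27 to 0.45) and 0.11 (-0.04 to 0.27), and passed it in MDA-MB-231, at 0.63, with total-count scaling. The ratio of BIRC3 to BIRC2, free of library scaling, went from 0.121 to 0.501 in MDA-MB-231 and from 0.422 to 1.24 in SUM159. Both feedback genes, like RELA, share some exonic bases with an antisense RNA gene: 95 of 6443 bases in TNFAIP3, 126 of 7484 in BIRC3 and 103 of 5457 in RELA. Whether counting used strand was not stated, so reads of those bases cannot be told apart. The antisense partner of TNFAIP3, WAKMAR2, had 2, 9, 9 and 69 counts and that of RELA, RELA-DT, had 30, 42, 58 and 58. That of BIRC3 was not in the read-count table, so no count can be given for it. NFKBIZ shares 194 of its 5902 exonic bases with NXPE3 on the same strand, which had 1268, 1136, 882 and 720 counts.

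The scatter of both lines' changes places these genes among all others. RELB sits at the lower right, BIRC3 and TNFAIP3 at the upper right, and RELA, NFKB1 and NFKBIA near the middle. The difference of the log2 fold changes, SUM159 minus MDA-MB-231, was -2.22 for RELB (counting interval -2.41 to -2.03), -1.26 for NFKBIE (-1.47 to -1.05), -1.23 for TNFAIP3 (-1.60 to -0.86), and 0.85 for NFKBIZ (0.65 to 1.06). For RELA it was 0.05 (-0.05 to 0.15) and for NFKBIA -0.04 (-0.15 to 0.07). With 1 library per condition these differences between lines could not be tested against replicate error. Each line was grown in its own medium, so line and medium cannot be told apart in them.

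**Figure D4:**
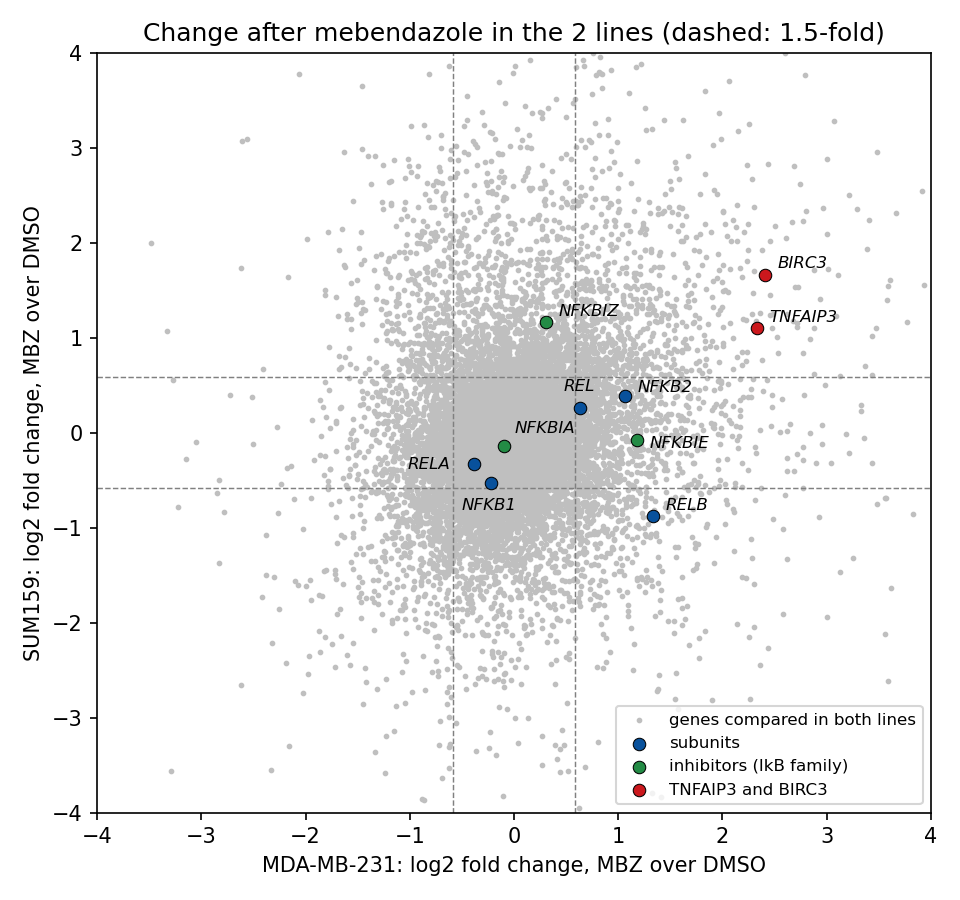
The log2 fold change after MBZ in MDA-MB-231 (horizontal) and SUM159 (vertical) for the 13733 genes compared in both lines (grey) and the 10 NF-κB genes (coloured by role), with dashed lines at 1.5-fold; 116 genes lie outside the axes. BIRC3 (2.41, 1.67) and TNFAIP3 (2.33, 1.10) are past the limit in both lines, and RELB (1.34, -0.88) is past it in opposite directions, though within it in SUM159 (-0.58) with total-count scaling.

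Promoter sequence was examined because BIRC3 and TNFAIP3 moved together and several members are known NF-κB targets. The RefSeq promoter table (GRCh38.p14) held 13 starts of 8 of the 10 genes. RELB and NFKBIE had no entry. The 250 bases before each start were searched on both strands for the κB consensus and for the looser form GGGNNNNNCC, which contains it. The κB consensus was present before 9 of the 13 starts (69.2%) and in 7 of the 8 genes, against 5.21% of all 35116 promoters, and the looser form before 12 starts (92.3%), against 54.4%. Across the other pathway genes listed further on, 21 of 103 starts (20.4%) held the consensus. RELA was the gene of the 8 with no consensus match in this window. The sequences of 5 genes are shown to set genes that moved beside genes that did not: higher in both lines (TNFAIP3, BIRC3), higher in SUM159 (NFKBIZ), and within 1.5-fold in both (NFKBIA, NFKB1). Not shown are NFKB2 and REL, which rose in MDA-MB-231 and whose matches lie within the annotated gene. Each runs 5′ to 3′ on the gene's strand and ends before both the RefSeq start and the annotated gene, with κB consensus matches in capitals.
TNFAIP3: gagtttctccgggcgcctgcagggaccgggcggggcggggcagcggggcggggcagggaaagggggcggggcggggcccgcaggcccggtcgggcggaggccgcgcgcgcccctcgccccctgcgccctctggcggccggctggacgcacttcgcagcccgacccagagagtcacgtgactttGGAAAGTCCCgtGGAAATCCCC
BIRC3: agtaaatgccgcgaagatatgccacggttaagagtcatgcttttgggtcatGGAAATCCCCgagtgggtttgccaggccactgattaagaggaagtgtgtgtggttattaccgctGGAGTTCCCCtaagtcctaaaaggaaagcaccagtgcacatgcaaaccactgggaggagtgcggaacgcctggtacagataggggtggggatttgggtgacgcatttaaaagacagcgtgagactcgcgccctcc
NFKBIZ: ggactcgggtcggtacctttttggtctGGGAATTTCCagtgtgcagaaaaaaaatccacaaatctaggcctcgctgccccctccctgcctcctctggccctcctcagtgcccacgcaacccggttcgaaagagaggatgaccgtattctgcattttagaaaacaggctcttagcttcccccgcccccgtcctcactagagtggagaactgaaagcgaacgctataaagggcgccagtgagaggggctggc
NFKBIA: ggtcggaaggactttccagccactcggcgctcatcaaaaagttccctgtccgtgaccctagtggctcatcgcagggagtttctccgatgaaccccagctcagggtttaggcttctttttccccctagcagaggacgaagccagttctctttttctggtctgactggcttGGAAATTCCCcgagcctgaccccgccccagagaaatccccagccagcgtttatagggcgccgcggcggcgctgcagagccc
NFKB1: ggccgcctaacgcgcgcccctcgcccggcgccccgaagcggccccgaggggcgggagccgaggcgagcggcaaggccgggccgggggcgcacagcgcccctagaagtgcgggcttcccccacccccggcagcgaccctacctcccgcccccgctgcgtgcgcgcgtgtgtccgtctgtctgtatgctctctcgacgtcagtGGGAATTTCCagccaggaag
The windows are chr6:137867009-137867213 (plus strand) for TNFAIP3, chr11:102317234-102317483 (plus) for BIRC3, chr3:101827740-101827989 (plus) for NFKBIZ, chr14:35404750-35404999 (minus) for NFKBIA and chr4:102501109-102501329 (plus) for NFKB1. Distances are counted from the RefSeq start, which lies 45 bases inside the annotated gene for TNFAIP3 and 29 bases inside it for NFKB1. The sequences shown for these 2 genes therefore stop that many bases short, at 205 and 221 bases, and the others hold 250. TNFAIP3 had a pair of matches close together, 67 to 58 and 55 to 46 bases before its start, and BIRC3 had 2 further apart, at 199 to 190 and 135 to 126. A single match lay 223 to 214 bases before the first NFKBIZ start, 81 to 72 before NFKBIA and 49 to 40 before the first NFKB1 start. Genes that were higher after MBZ and genes that were not thus both held matches. A match is a run of letters and no measurement of binding.

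**Figure D5:**
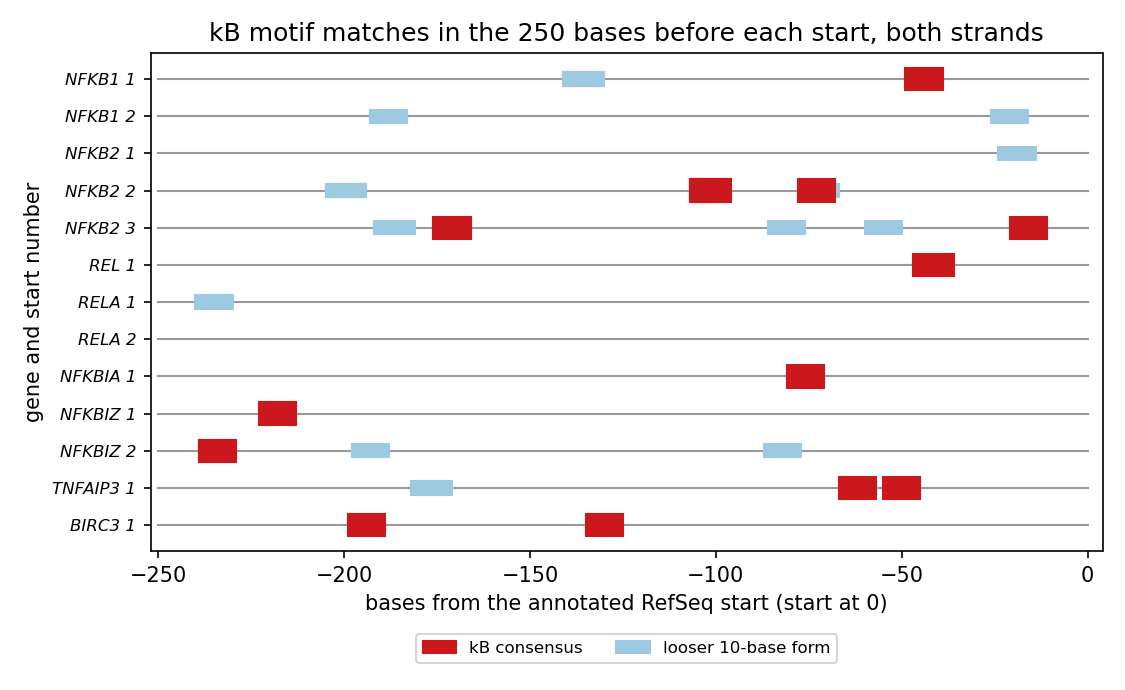
Matches to the κB consensus (red) and to the looser form (blue) in the 250 bases before each of the 13 RefSeq starts of 8 genes, on either strand, plotted by distance from the start. Consensus matches lie before 9 of the 13 starts, and RELA has none.

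The lines also differed without drug, in a comparison in which line and culture medium cannot be told apart, since each line was grown in its own medium and that of SUM159 contained hydrocortisone. Of the 10 genes, 8 were at least 1.5-fold higher in SUM159 DMSO than in MDA-MB-231 DMSO, against 31% of 15559 genes, and 0 were lower, against 30.6%. TNFAIP3 differed most, 18.5-fold (log2 4.21, 3.88 to 4.57), followed by RELB at 11.0-fold (log2 3.46, 3.31 to 3.62) and NFKBIE at 5.46-fold (log2 2.45, 2.28 to 2.62). NFKB2, REL, NFKB1 and NFKBIA were 2.91-, 2.78-, 2.29- and 2.07-fold higher, and BIRC3 1.60-fold. RELA and NFKBIZ were within 1.5-fold, with log2 differences of 0.01 (-0.06 to 0.08) and -0.08 (-0.24 to 0.09). SUM159 in DMSO thus had more transcript of most inhibitors and feedback genes at about equal RELA. MDA-MB-231 MBZ and SUM159 MBZ had near-equal BIRC3, 11.1 and 10.5 RPKM.

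A change shared by both lines was tested with edgeR's quasi-likelihood test, with cell line and treatment as terms, over 16100 genes. At a Benjamini-Hochberg adjusted p under 0.05, 1 gene was called in all (0.00621%) and none of the 10. At an unadjusted p under 0.05 there were 3 of the 10 and 1150 (7.14%) of all genes. BIRC3 had a shared log2 fold change of 2.08 (SE 0.32) with an edgeR adjusted p of 0.327 and an unadjusted p of 0.000386, and was higher with MBZ in 2 of 2 lines. TNFAIP3 had 1.73 (SE 0.38) with an edgeR adjusted p of 0.441, and NFKBIZ 0.78 (SE 0.32) with 0.693. Other tools differed: DESeq2's Wald test called 1 of the 10, BIRC3, at an adjusted p of 0.00126, among 99 of 15390 genes. The edgeR test without a filter on low counts called BIRC3 and TNFAIP3, among 298 of 32295 genes. Over the 4 alternatives the edgeR and DESeq2 adjusted p ran from 1.26e-05 to 1 for BIRC3 and from 0.00106 to 1 for TNFAIP3. With 2 lines, this test takes its error from how their responses differ, and RELB, with its opposite directions, had 0.26 (SE 0.54).

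The rest of the pathway was described from 6 lists of 80 matched genes. In MDA-MB-231, 15 of 66 compared genes (22.7%) were higher after MBZ and 4 (6.06%) lower, beside 18.3% and 15.8% of all genes. In SUM159, 19 of 75 (25.3%) were higher and 16 (21.3%) lower, beside 21.5% and 21.7%, so the shares there were near those of all genes. Total-count scaling gave 27 higher (40.9%) and 4 lower (6.06%) in MDA-MB-231, beside 29.1% and 7.57% of all genes at that scaling, and 27 (36%) and 7 (9.33%) in SUM159, beside 32.8% and 12.8%. The median log2 fold change of the lists was 0.19 and 0.00 in the 2 lines, beside -0.02 and -0.03 over all genes. The 3 other IκB genes did not move together. NFKBIB, a cytoplasmic inhibitor, was higher in both lines (log2 0.67 and 1.11), BCL3, a nuclear partner of the NFKB1 and NFKB2 products, was lower in both (-0.93 and -0.62, the second becoming -0.32 with total-count scaling), and NFKBID, another nuclear member, was higher in SUM159 (2.26, 1.66 to 2.93) and had -0.57 in MDA-MB-231.

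Of 25 kinases and adaptors, 3 rose (12%) and 1 fell (4%) in MDA-MB-231, where 18.3% and 15.8% of all genes did, and 1 rose (4%) and 5 fell (20%) in SUM159, where 21.5% and 21.7% did. With total-count scaling the higher ones in MDA-MB-231 were 9 (36%) and the lower ones 1 (4%), beside the 29.1% and 7.57% of all genes at that scaling, and 4 (16%) and 0 in SUM159, beside 32.8% and 12.8%. TRAF1, a survival adaptor and known NF-κB target, was the one higher in both, with 575, 1247, 231 and 910 counts and log2 fold changes of 1.39 (1.25 to 1.53) and 1.66 (1.45 to 1.88). MAP3K14, the non-canonical kinase, was higher in MDA-MB-231 (0.89, 0.76 to 1.02) and had -0.52 (-0.71 to -0.33) in SUM159. It shares 858 of its 5668 exonic bases with an antisense RNA gene and is uncertain for that reason. The IκB kinase genes CHUK and IKBKB were within 1.5-fold in both lines, though total-count scaling took CHUK past it in both (log2 0.62 and 0.70) and IKBKB in MDA-MB-231 (0.66). IKBKG, which also was, has a near-identical pseudogene and is uncertain.

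Among 11 other negative regulators, 3 of 10 compared (30%) were higher in MDA-MB-231 and 3 of 10 (30%) in SUM159, beside 18.3% and 21.5% of all genes, and 0 were lower, beside 15.8% and 21.7%. Total-count scaling made the higher ones 6 (60%) in MDA-MB-231, where it made 29.1% of all genes higher. In SUM159 the higher ones were 3 (30%) at that scaling, near the 32.8% of all genes. The RNase gene ZC3H12A was higher in both (log2 1.57 and 0.65), and the deubiquitinase gene CYLD in MDA-MB-231 (1.15) but not in SUM159 (-0.25). Among 9 ligand genes, 3 could be compared in MDA-MB-231, with 1 higher and 1 lower (33.3% each), beside 18.3% and 15.8% of all genes. In SUM159 7 could be compared, of which 3 (42.9%) were higher and 1 (14.3%) lower, beside 21.5% and 21.7% of all genes. With total-count scaling 5 of the 7 (71.4%) were higher in SUM159, beside 32.8% of all genes. TNF itself had 0, 1, 30 and 50 counts. IL1B had 17, 16, 87 and 2183 counts, a log2 fold change of 4.33 (4.02 to 4.66) in SUM159 and 0.18 (-0.90 to 1.26) in MDA-MB-231, and IL1A had 8, 28, 33 and 539. TNFSF12 was lower in both lines (-1.56 and -1.36), with 553 of its 4562 exonic bases shared with genes on the same strand. Among 11 receptors, 1 was higher and 1 lower (9.09% each) in MDA-MB-231, beside 18.3% and 15.8% of all genes. In SUM159, 1 was higher (9.09%) and 6 lower (54.5%), beside 21.5% and 21.7%. Scaled by total counts, MDA-MB-231 had 3 higher (27.3%) and 1 lower (9.09%), beside 29.1% and 7.57%, and 3 (27.3%) and 4 (36.4%) in SUM159, beside 32.8% and 12.8%. TNFRSF1A, the main tumour necrosis factor receptor, was lower in both (-1.02 and -1.20), and TLR4 in SUM159 (-1.85). The interleukin-1 receptor IL1R1 was higher in MDA-MB-231 (0.78) and lower in SUM159 (-1.17).

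Of 21 matched target genes, 14 were compared in MDA-MB-231, where 6 rose (42.9%) and 0 fell, beside 18.3% and 15.8% of all genes. In SUM159, 19 were compared, of which 9 rose (47.4%) and 3 fell (15.8%), beside 21.5% and 21.7%. With total-count scaling 7 (50%) rose and 0 fell in MDA-MB-231, beside 29.1% and 7.57% of all genes. The same scaling gave 10 higher (52.6%) and 2 lower (10.5%) in SUM159, beside 32.8% and 12.8%. The cytokine gene IL6 had 44, 953, 682 and 3739 counts, the neutrophil chemokine gene CXCL8 had 112, 415, 351 and 16914, and the prostaglandin synthase gene PTGS2 had 68, 590, 8 and 173. Each MBZ library was above its DMSO library for all 3. On the log2 scale the fold changes in MDA-MB-231, then SUM159, were 4.71 and 2.14 for IL6, 2.16 and 5.27 for CXCL8, and 3.39 and 4.10 for PTGS2. CCL20, a lymphocyte chemokine gene, had 3 counts in SUM159 DMSO and 589 in SUM159 MBZ, a log2 ratio of 7.25 with a counting interval of 5.75 to 9.58. Against these, the adhesion gene VCAM1 had 327 and 35 counts in SUM159 (-3.53, -4.09 to -3.03), and ICAM1 was lower there too (-0.64, -0.73 to -0.55), though -0.34 with total-count scaling. ICAM1, IL6 and PTGS2 share 876 of 3448, 428 of 4321 and 219 of 5484 exonic bases with genes on the other strand and are uncertain to that extent. The T cell chemokine gene CCL5 was higher in MDA-MB-231 (2.19, 1.22 to 3.31) from 11 counts and lower in SUM159 (-1.52, -1.63 to -1.40) from 2035. Targets within SUM159 thus moved both ways, while BIRC3, TNFAIP3 and NFKBIZ were higher and NFKBIA was within 1.5-fold. Over the 65 pathway genes compared in both lines, 9 (13.8%) were higher in both, 3 (4.62%) lower in both and 2 (3.08%) opposite, beside 6.12%, 4.71% and 6.04% of all genes.

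The 5 genes whose pattern over the 4 libraries lay nearest to that of NFKBIA, among 11141 others with a mean of at least 100 counts, were PES1, DDX19A, URB1, FBXL15 and MTFMT, at Euclidean distances of 0.04 to 0.10 in centred log2 CPM (library-scaled counts). TNFAIP3 had no neighbour that close: its nearest were DUSP8, LINC00460, HSPB8, ZC3H12A and BMP2, at 0.51 to 0.66. A pattern over 4 libraries is short, and NFKBIA's is mainly the step between the lines.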

How the data were processed

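RNA of 4 cell line cultures was sequenced as 150-base paired reads. The authors aligned reads with STAR 2.5 to GRCh38, counted them per gene with HTSeq 0.6.1 in union mode and used edgeR 3.16.5, per the labels and methods; the annotation release and strand setting are not given in the sources used here. The deposited values are raw read counts, summing to 17143139 to 24897586 per library. Of 58735 identifiers, 58207 matched a symbol. Here edgeR 4.0.16 in R 4.3.3 gave log2 CPM (prior count 0.125) after TMM within each line; DESeq2 1.42.0 served as an alternative. Exon lengths came from GENCODE 44. Counting intervals of fold changes are 95% Clopper-Pearson. Those of gene ratios, subunit shares and differences between lines are 95% normal approximations on a log or log odds scale. The floor for a gene at 0 was 3 counts. Scripts were tested on simulated data. The alternatives were other scalings, prior counts, count minimums and folds, and other models for the shared change. Named genes are the 10 members, members of the pathway and marker lists, and the 5 nearest patterns to NFKBIA and TNFAIP3; genes that overlap a member's exons are named beside it. The members and lists were chosen with earlier results of these data known. SOD2 was on the target list and was not matched. One listed marker gene is not reported here.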

Additional observations from a re-analysis of the deposited data

Results flagged for a closer look

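RELB went opposite ways in the lines, with a log2 fold change after MBZ of 1.34 in MDA-MB-231 and -0.88 in SUM159, both past 1.5-fold and each with a counting interval on its own side of 0; with total-count scaling the SUM159 value was -0.58, within 1.5-fold. IL1R1, the interleukin-1 receptor gene, also went opposite ways past 1.5-fold, at 0.78 and -1.17, as did the chemokine gene CCL5, at 2.19 and -1.52. Their counting intervals likewise lay on 1 side of 0. With total-count scaling both genes were still past 1.5-fold in both lines, at 1.04 and -0.87 for IL1R1 and 2.46 and -1.22 for CCL5. These were picked out because the single MBZ to DMSO difference of one line had the opposite sign to that of the other. The difference between the lines was not tested, since each condition had 1 library, and line and culture medium cannot be told apart in it.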

How the results depend on the processing

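No replicate could be left out, because each condition had 1 library. The counts of members higher after MBZ (6 in MDA-MB-231, 3 in SUM159) stayed within 1.5 times of those values under all 8 alternatives, and the 8 members higher in SUM159 DMSO under all 3 of theirs. The share of all genes that were higher did move. With every gene of at least 1 count it was 34.4% in MDA-MB-231 and 40.3% in SUM159, and the 3 of 10 members (30%) in SUM159 lay below it. With a fold of 2 it was 9.05% and 12.7%, beside 5 and 3 members higher. With total-count scaling or a fold of 2, members lower in SUM159 went from 1 to 0, and so did members in opposite directions: RELB was the gene in question. With total-count scaling NFKB2 passed 1.5-fold in SUM159, giving 4 of the 10 higher and 0 lower there, beside 32.8% and 12.8% of all genes. At that scaling 79.4% of all calls in MDA-MB-231 and 71.9% in SUM159 were higher, against 53.7% and 49.8%. Of all calls with a mean of at least 100 counts, 39.9% and 38.7% were higher. Pathway genes higher in MDA-MB-231 were 27 with total-count scaling and 24 with every gene of at least 1 count, against 15. The 24 were 32% of those compared, below the 34.4% of all genes at that setting. The 15 were 22.7%, above the 18.3% of all genes. In SUM159 every gene of at least 1 count gave 24 (30%), below 40.3% of all genes, against 19 (25.3%), above 21.5%. Pathway genes lower in SUM159 were 7 with total-count scaling (9.33%, beside 12.8% of all genes) and 7 with a fold of 2 (9.33%, beside 10.7%). The main setting gave 16 (21.3%, beside 21.7%). Those lower in MDA-MB-231 were 2 with a fold of 2 (3.03%, beside 5.14%), against 4 (6.06%, beside 15.8%). Pathway genes in opposite directions were 1 with a mean of at least 100 counts and 1 with a fold of 2, against 2 (3.08%, beside 6.04% of all genes). No share of all genes was available for opposite directions at the alternative settings. Total-count scaling moved 17 of the 20 member log2 fold changes beyond their counting intervals, and the other scalings and the prior count of 2 moved 0. Members higher in the shared test were 1 with DESeq2 and 2 with edgeR on every gene, against 0. The shared log2 fold change of RELB turned from 0.26 to -0.47 in the model without cell line. The cause of these differences was not tested, other than the stricter fold and the count minimums, which act on the counts by construction. At this depth REL, with 66 to 196 counts, had the widest interval of the 10.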

Other observations

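CSF2, a granulocyte-macrophage growth factor gene on the target list, had 37 counts in SUM159 DMSO and 1432 in SUM159 MBZ (log2 4.95, 4.49 to 5.47). In MDA-MB-231 its log2 fold change was 0.14 (-0.20 to 0.47), where 6 of the 14 targets compared rose (42.9%, beside 18.3% of all genes). TNFRSF12A, the receptor for the TNFSF12 product, had 1659 and 6442 counts in SUM159 (log2 1.64, 1.56 to 1.72) and 5755 and 4397 in MDA-MB-231 (-0.12, -0.17 to -0.06). Limits are 1 library per condition, 1 dose, 1 time point, and no measure of protein, of IκB degradation or of NF-κB binding.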
